A study of Mus musculus with 16 samples.

Results

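The 77 genes described here encode proteins of the mouse mitochondrial ribosome. They are all entries whose symbol starts with Mrpl or Mrps followed by a digit, pseudogenes left out, among 24486 entries of the islet tables and 23966 symbols of the embryo tables. Each symbol was listed once per library, and all 77 reached 1 FPKM (a level of fragments corrected for transcript length and for the size of the library) in all 10 RNA-seq libraries. The series asks whether small RNA of sperm carries a father's diet into the offspring. Sperm came from male C57BL/6J mice on a high-fat diet (HFD, D12492) or a normal diet (ND), and sperm RNA of 30 to 40 nt at 2 ng per µl was injected into zygotes of the outbred ICR stock. The groups are named by the diet of the sperm donors. Every embryo and offspring library analysed therefore comes from an injected ICR zygote, and the water injection that the labels name as a control was not analysed here. Embryos were collected 56 h (8-cell) or 75 h (late blastocyst) after injection, with 1 library of 5 pooled embryos per group at each stage, made by Smart-Seq2. Islets were isolated after 6 h of fasting from F1 offspring grown from such zygotes, with 3 libraries per group from a stranded mRNA kit. The labels give neither the age nor the sex of the offspring, and do not say whether the 3 libraries are 3 animals, so p-values measure the spread between these libraries. In whole embryos and islets, fewer cells of a type and less RNA per cell cannot be told apart.

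Mitochondria keep a small genome of their own and a separate ribosome to translate it. The RNA of that ribosome comes from mitochondrial DNA, while its proteins are encoded in the nucleus, made in the cytosol and imported. In beta cells the respiratory chain built with these translation products links glucose to insulin release, and early embryos rely on mitochondria inherited from the oocyte. Some of the proteins have a bacterial counterpart, and others belong to mitochondrial ribosomes only. By subunit and descent, the members comprised 30 proteins of the large subunit with a bacterial counterpart and 20 that only mitochondria have. The small subunit gave 16 with a bacterial counterpart and 10 that only mitochondria have. Mrps18a and Mrps30 were counted with the large subunit, where their proteins sit. Mrps36 stands apart, because its protein is known as a subunit of the 2-oxoglutarate dehydrogenase complex and is absent from structures of the mitochondrial ribosome.

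The starts of several members showed letters read by known regulators of nuclear genes for mitochondria. RefSeq windows of 250 bases before to 50 bases after a start (build GRCm38.p6) were found for 68 of the 77 members, in 74 windows. The letters CCGGAAG of the ETS factors, to which GABPA belongs, stood in 33.8% of member windows on either strand, against 8.86% of all 32851 windows and 11.6% of the 21263 windows of protein-coding genes. For NRF1, GCGCANGCG stood in 21.6% of member windows against 6.25% of all windows and 8.58% of coding ones. For YY1, AAGATGGC stood in 16.2% against 2.75% and 3.05%. At least 1 of the 3 stood in 58.1% of member windows, 15.96% of all windows and 20.5% of coding ones. Of the 68 members, 43 had at least 1 of these motifs, and 21 had a gene starting on the other strand within 300 bases upstream. Sequence just before the start is shown for members on which the results below turn, written 5′ to 3′ on the strand of the gene, with matches to the 3 motifs in capitals. Mrpl36 (chr13:73330859-73331008, plus strand), with the largest rise between stages, had the YY1 letters. Mrpl34 (chr8:71464776-71464925, plus strand) and Mrpl52 (chr14:54426759-54426908, plus strand) had the ETS letters. Mrpl45 (chr11:97315566-97315715, plus strand) had a pair of NRF1 matches before its start. Mrpl37 (chr4:107066867-107066993, minus strand), with the largest decrease from ND to HFD at both embryo stages, had no match before its start. Its run ends where the neighbouring gene Cyb5rl begins. Mrps11 (plus strand) and Mrpl46 (minus strand), both members, start 42 bases apart, and the run shows all bases between them (chr7:78783090-78783130, strand of Mrps11).
Mrpl36: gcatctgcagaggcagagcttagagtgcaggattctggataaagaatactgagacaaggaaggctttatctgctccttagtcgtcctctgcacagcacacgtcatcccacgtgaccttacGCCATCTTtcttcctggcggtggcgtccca
Mrpl34: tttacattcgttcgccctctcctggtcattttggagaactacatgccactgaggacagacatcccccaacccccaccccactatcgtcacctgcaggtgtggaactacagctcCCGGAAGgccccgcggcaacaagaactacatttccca
Mrpl52: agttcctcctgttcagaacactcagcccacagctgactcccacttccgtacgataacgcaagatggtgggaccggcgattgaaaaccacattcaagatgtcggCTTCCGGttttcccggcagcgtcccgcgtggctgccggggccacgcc
Mrpl45: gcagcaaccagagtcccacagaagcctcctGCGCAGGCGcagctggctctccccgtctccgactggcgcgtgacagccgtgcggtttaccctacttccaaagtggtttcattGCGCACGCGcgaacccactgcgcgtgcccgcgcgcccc
Mrpl37: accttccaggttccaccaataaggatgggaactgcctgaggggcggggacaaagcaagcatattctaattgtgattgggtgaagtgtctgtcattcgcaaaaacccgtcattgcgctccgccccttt
Mrps11-Mrpl46: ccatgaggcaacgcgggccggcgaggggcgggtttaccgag
The YY1 letters found for Mrpl37 lie after its start and those for Mrps11 lie farther before its start, beyond the start of Mrpl46, so neither match is in the runs printed. Mrpl45 has a further NRF1 match and Mrpl52 a further ETS match after the start, also outside the runs. A match describes these letters only, and no binding was measured here.

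The members were highly expressed in embryos and moderately in islets. Their median level was 88.8 FPKM (ND) and 75.5 FPKM (HFD) at the 8-cell stage and 119 FPKM (ND) and 87.8 FPKM (HFD) in blastocysts. In islets the median was 8.48, 9.80 and 10.3 FPKM in the ND libraries and 13.0, 11.01 and 10.9 FPKM in the HFD libraries. Among genes with at least 1 FPKM in a library, the median member lay at the 88.0 to 89.2 percentile in embryos and at the 67.8 to 71.4 percentile in islets. The 77 genes together held 1.59% to 2.42% of all FPKM in embryos. In islets, insulin transcripts alone held 37.7% to 64.4% of all FPKM, and the members' share of FPKM without insulin was 0.161% to 0.332%. Embryos and islets differ in tissue and in library kit, which cannot be told apart, so no test was made between them.

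**Figure D1:**
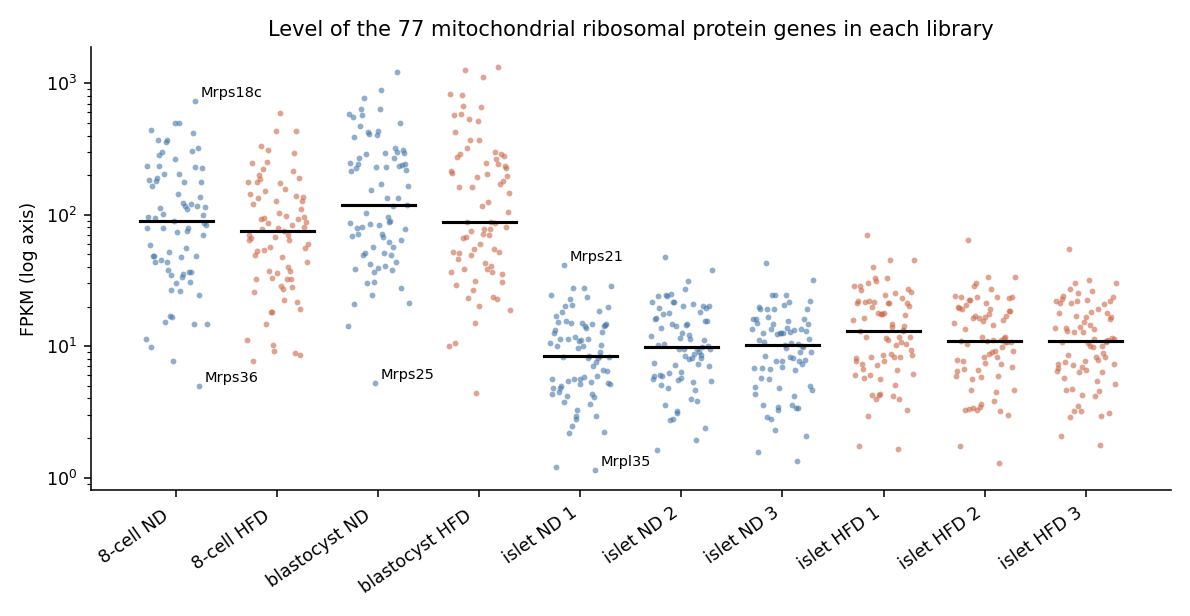
Level of each of the 77 genes (points, FPKM on a log axis) in the 10 RNA-seq libraries, ND in blue and HFD in orange, with the median of each library as a bar. Medians lie between 75.5 and 119 FPKM in embryos and between 8.48 and 13.0 FPKM in islets.

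The order of the members was alike at both embryo stages and less so in islets. Spearman's rho over the 77 mean levels was 0.90 between 8-cell embryos and blastocysts, 0.43 between 8-cell embryos and islets and 0.51 between blastocysts and islets; the embryo libraries share a kit. Mrps18c, counterpart of the bacterial small-subunit protein S18, had the highest mean of the members at both embryo stages, at 735.5 FPKM (ND) and 436 FPKM (HFD) at the 8-cell stage and 1208 FPKM (ND) and 1317 FPKM (HFD) in blastocysts. Mrpl33, a small protein of the large subunit, ranked 2 by mean at the 8-cell stage and 3 in blastocysts, and at 594 FPKM lay above Mrps18c in the 8-cell HFD library. In islets Mrps21, counterpart of bacterial S21, was highest, at 41.3, 47.5 and 43.2 FPKM in the ND libraries and 70.1, 64.3 and 54.4 FPKM in the HFD libraries. Within either group these values lay above all values of Mrpl52, the next highest, which held 28.9, 37.7 and 32.0 FPKM (ND) and 45.2, 33.5 and 30.0 FPKM (HFD). In embryos Mrpl52 was low, with 14.7 FPKM (ND) and 59.4 FPKM (HFD) at the 8-cell stage and 21.1 FPKM (ND) and 18.7 FPKM (HFD) in blastocysts, so its rank went from 58 and 74 of 77 in embryos to 2 in islets. Mrpl35 went the other way, from 32.4 FPKM (rank 63) and 55.8 FPKM (rank 56) on average in embryos to 1.52 FPKM in islets, the lowest of the 77. Mrpl19 was among the 4 lowest in all 3 tissues, with means of 8.73, 15.7 and 1.66 FPKM at the 8-cell stage, in blastocysts and in islets. Mrps25 was lowest in blastocysts at 5.28 FPKM (ND) and 4.36 FPKM (HFD). The listed loci of Mrpl19 and Mrps25 overlap those of Gcfc2 and Nr2c2, as the loci of 11 members overlap another listed gene. Smart-Seq2 does not keep the strand, and for islets the strand setting of the counting was not given in the sources used here, so reads of such pairs may have been split.

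Markers of beta cells went with the tissue labels, and markers of trophectoderm and the oocyte with the embryo stages. Those of inner cell mass and primitive endoderm did not separate the embryo stages. The 10 beta cell markers summed to at most 0.154 FPKM in embryos and to 288200 FPKM or more in islets. The 6 trophectoderm markers summed to 68.3 FPKM (ND) and 64.6 FPKM (HFD) at the 8-cell stage and to 2686 and 2971 FPKM in blastocysts. They are not particular to embryos, as in islets they summed to 166 to 274 FPKM (ND) and 213 to 282 FPKM (HFD). Markers of the maternal oocyte summed to 26.7 and 27.6 FPKM at the 8-cell stage against 3.84 and 2.67 FPKM in blastocysts. The 5 inner cell mass markers summed to 94.1 (ND) and 95.5 FPKM (HFD), then 115.9 and 72.1 FPKM. The 4 primitive endoderm markers summed to 46.8 and 38.7 FPKM, then 49.1 and 43.45 FPKM. Within the trophectoderm list Tfap2c did not rise, with 28.1 and 35.15 FPKM, then 27.9 and 25.6 FPKM. In islets the markers of acinar cells, which make digestive enzymes, summed to 202700 to 287400 FPKM in the ND libraries and 88630 to 193300 FPKM in the HFD libraries. Exocrine transcripts were thus present in all 6, and the sums did not overlap between the groups. Single markers did overlap, namely Ctrb1, Cela2a, Cela3b, Try4, Try5, Rnase1, Bhlha15 and Amy2b, the last being highest in HFD replicate 1 (1463 FPKM). The other detected acinar markers were lower in every HFD library.

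Between the 8-cell stage and the blastocyst more members rose than fell, by up to 2.40 on the log2 scale. In blastocysts 32 of the 77 rose (41.6%) and 2 fell (2.6%), by limma on log2(FPKM + 1) with Benjamini-Hochberg adjusted p under 0.05 over 9603 genes. Over all genes tested, 31.9% rose and 16.1% fell. The members' median difference was 0.62, against 0.30 for all genes. In the ND pair and the HFD pair of libraries alike, 54 members were higher and 8 lower in blastocysts, while 15 differed in direction between the pairs. Counts over all genes for both pairs are not given here. By the fitted value, whatever its p, 60 of 77 members were higher (77.9%), against 60.6% of all genes. After the libraries were scaled to a common median ratio, 21 members rose (27.3%) and 5 fell (6.49%) with a median of 0.28, while the median of all genes moved from 0.30 to 0.03. On that scale 24.8% of all genes rose and 23.6% fell, and 50 of 77 members were higher (64.9%) against 50.9% of all genes. The fit rests on 4 libraries, with the injected RNA as a term and 1 residual degree of freedom. With stage alone in the model 22 members rose, and the share of all genes in that model is not given here. Leaving out any 1 library from that model lowered the number of members called, most so without the blastocyst HFD library. Such a fit leaves 1 library at a stage, and members were not compared with all genes in it.

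Of the 5 largest rises, 4 were in proteins of the large subunit and 1 was in Mrps36. Mrpl36, one of the smallest proteins of the subunit, held 144 FPKM (ND) and 103.5 FPKM (HFD) at the 8-cell stage and 640 and 659 FPKM in blastocysts, a difference of 2.40 (SE 0.24, adjusted p = 0.00127). Mrpl24, which lies near the exit of the peptide tunnel in bacterial ribosomes, went from 48.7 and 49.2 FPKM to 225 and 274 FPKM, a difference of 2.32 (SE 0.21, adjusted p = 0.00105). Both blastocyst libraries of either gene lay above both 8-cell libraries. The locus of Mrpl24 overlaps Rrnad1, which itself rose by 1.46 (adjusted p = 0.00739) at 3.73 to 12.4 FPKM, far under the level of Mrpl24. Mrpl42, a protein that only mitochondria have, rose by 1.92 (SE 0.32, adjusted p = 0.00501), from 301 and 223 FPKM to 771 and 1258 FPKM. Mrpl18 rose by 1.77 (SE 0.26, adjusted p = 0.00338), from 236 and 185 FPKM to 636 and 807 FPKM. Mrps36, the dehydrogenase subunit, rose by 2.09 (SE 0.25, adjusted p = 0.00196), from 5.01 and 8.597 FPKM to 27.8 and 35.1 FPKM. The calls of Mrpl42, Mrpl18 and Mrps36 were lost without the blastocyst HFD library (adjusted p = 0.0802, 0.0730 and 0.0642).

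The classes differed in how many members rose, a difference that was not tested. Among the 16 small-subunit proteins with a bacterial counterpart, 10 rose (62.5%, against 31.9% of all genes) and 1 fell, with a median difference of 1.08. After scaling 9 rose (56.2%, against 24.8% of all genes) and 2 fell, with a median of 0.74. The 10 included Mrps14, Mrps15, Mrps16 and Mrps5, each with a difference between 1.39 and 1.57. Mrps12, counterpart of the bacterial protein S12 at the decoding site, rose by 1.47 (SE 0.23, adjusted p = 0.00391), from 123 and 75.5 FPKM to 294 and 246 FPKM. Of the 10 small-subunit proteins that only mitochondria have, 3 rose (30%) and 1 fell, or 2 and 3 after scaling. In the large subunit, 13 of 30 with a bacterial counterpart (43.3%) and 5 of 20 that only mitochondria have (25%) rose and none fell, with medians of 0.67 and 0.34. After scaling these were 6 (20%) and 3 (15%), with none fallen and medians of 0.34 and 0.00. The shares risen in the 2 classes that only mitochondria have thus lay near or below that of all genes on both scales. After scaling the large-subunit class with a bacterial counterpart also lay below it (20% against 24.8%). Mrpl12, which forms the stalk that recruits translation factors, was high at both stages, with 372 and 309 FPKM at the 8-cell stage and 414 and 368 FPKM in blastocysts (difference 0.20, SE 0.22, adjusted p = 0.470).

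**Figure D2:**
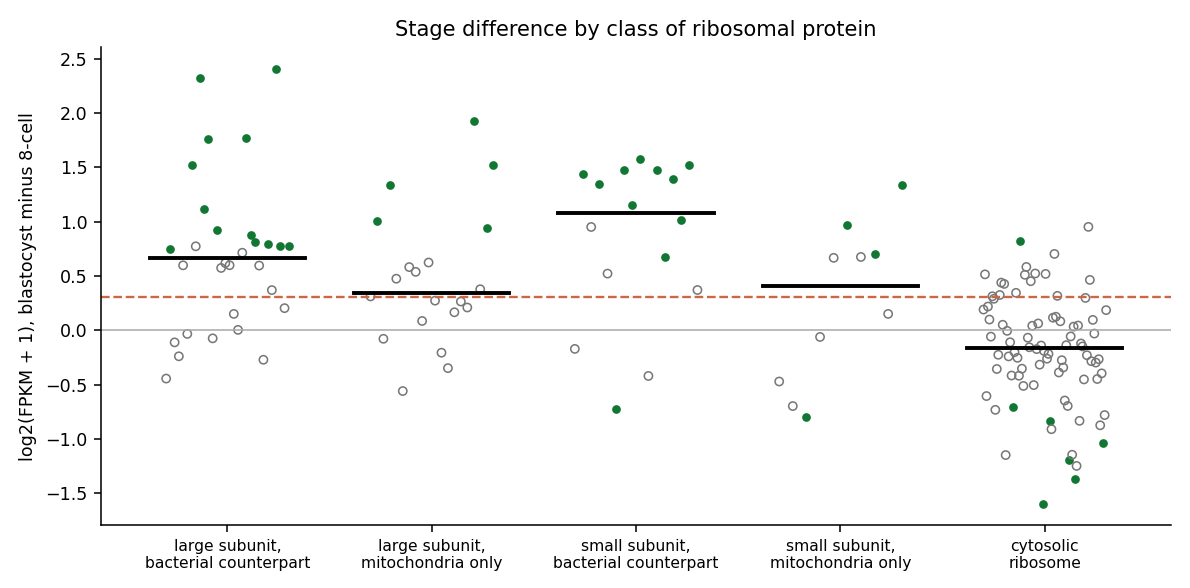
Difference between blastocyst and 8-cell embryos in log2(FPKM + 1) for each gene (points), by class of ribosomal protein, with filled green points for adjusted p under 0.05, bars for class medians and a dashed line for the median of all genes at 0.30. The small-subunit class with a bacterial counterpart has 10 filled points above 0 and 1 below; the cytosolic class has its median below 0.

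The 2 members that fell were Mrps31, a small-subunit protein that only mitochondria have, and Mrps6, counterpart of bacterial S6. Mrps31 held 111 FPKM (ND) and 70.1 FPKM (HFD) at the 8-cell stage and 61.5 and 41.0 FPKM in blastocysts, a fall of -0.80 (SE 0.21, adjusted p = 0.0219). Mrps6 held 101.5 and 93.9 FPKM, then 51.4 and 67.2 FPKM, a fall of -0.72 (SE 0.23, adjusted p = 0.0421). Its locus overlaps Slc5a3, listed at 3.42 FPKM or less in each embryo library. With stage alone in the model neither was called (adjusted p = 0.114 and 0.103), nor was either when a library was left out of that model. With median ratio scaling both were, at -1.14 and -1.06, while Mrps6 also lost its call with a pseudocount of 0.1, without the filter on low values or without the trend (adjusted p from 0.0539 to 0.0741).

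Genes that start near a member on the other strand moved with it in some pairs and not in others. Of 13 such pairs with a stage value for both genes, both rose in 1 (Mrpl30 at 1.52 and Mitd1 at 1.196), 1 gene of the pair rose in 7 and neither in 5; no gene fell, and the signs were alike in 10. Mrps27 and Ptcd2 had nearly equal differences that did not pass the test (0.67 each). The pairs that follow were chosen after their values were seen. Mrps11, whose start lies 42 bases from that of Mrpl46, rose by 1.48 (SE 0.21, adjusted p = 0.00327), from 96.0 and 69.9 FPKM to 248 and 213 FPKM. Mrpl46 held 231 and 139 FPKM, then 299 and 241 FPKM, a difference of 0.58 (SE 0.23, adjusted p = 0.0764). In both blastocyst libraries the gap between the genes was smaller than at the 8-cell stage, and the difference between their changes was not tested. Mrps12 starts 147 bases from Sars2, the mitochondrial seryl-tRNA synthetase, which held 6.95 and 5.27 FPKM, then 7.01 and 6.82 FPKM (difference 0.17, SE 0.28, adjusted p = 0.645). Of the 43 members with at least 1 of the 3 motifs 19 rose (44.2%) and none fell, against 31.9% and 16.1% of all genes. Of the 25 with a window but no motif 11 rose (44%) and 2 fell. Single motifs differed more, as 37.5% of the 16 members with the NRF1 letters rose, against 46.2% of the 52 without. Their medians were 0.21 and 0.67. With and without the ETS letters 40% and 46.5% rose, and with and without the YY1 letters 50% and 42.9%. These differences were not tested.

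Other genes of mitochondrial translation were counted by role, to be read against 31.9% of all genes risen and 16.1% fallen, or 24.8% and 23.6% after scaling. Of 7 further proteins of the ribosome with other symbols, 4 rose (57.1%) and 1 fell, or 3 and 1 after scaling. Chchd1, a small-subunit protein, rose by 2.13 (SE 0.30, adjusted p = 0.00310), from 237 and 175.5 FPKM to 730.5 and 1094 FPKM. Gadd45gip1, a large-subunit protein also called CRIF1, fell by -1.42 (SE 0.21, adjusted p = 0.00359), from 72.0 and 65.7 FPKM to 26.0 and 24.2 FPKM. Of 14 translation factors and partners of mitochondrial mRNA, 5 rose (35.7%) and none fell, or 3 (21.4%) and none after scaling, among them Lrpprc, which stabilises mitochondrial mRNA, with a rise of 1.94 (SE 0.25, adjusted p = 0.00239). Of 20 ribosome assembly factors, 1 rose and 2 fell on either scale. As deposited 1 rose (Mpv17l2, by 1.56, adjusted p = 0.00299) and 2 fell, namely the GTPases Noa1 (by -1.17, adjusted p = 0.0148) and Gtpbp10 (by -1.004, adjusted p = 0.0231). Of 12 genes for mitochondrial transcription and its nuclear regulators, 3 rose and 3 fell, or 2 and 3 after scaling. Tfam, which packages mitochondrial DNA, rose by 1.14 (adjusted p = 0.0127), its partner Tfb2m fell by -1.41 (adjusted p = 0.00796), and Gabpa and Yy1 fell by -0.87 (adjusted p = 0.0243) and -0.73 (adjusted p = 0.0466). Transcripts of the mitochondrial genome itself were not analysed here.

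The proteins of the cytosolic ribosome, chosen by the same kind of rule, had a lower median. Of 84 tested, 1 rose and 6 fell between stages, with a median of -0.17 against 0.62 for the members. After scaling none rose and 22 fell (26.2%, against 23.6% of all genes), with a median of -0.51 against 0.28. The difference between the lists was not tested.

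At the 8-cell stage most members were lower under HFD, as were most genes. With 1 library per group there is no replicate check and no test. Of the 74 members with a mean of at least 10 FPKM, 58 were lower and 16 higher; over 3687 genes 22.7% were higher. The median difference was -0.36 for members and -0.32 for all genes, and with median ratio scaling it was -0.15 and -0.11, with 24 members higher against 38.8% of all genes. A difference of 1 or more on the log2 scale was seen for 1 member upward (1.95% of all genes) and 2 downward (4.96% of all genes). After scaling these were 2 members upward (2.85% of all genes) and 0 downward (2.03%). The 84 cytosolic ribosomal proteins had 49 higher and 35 lower, with a median of 0.09.

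Mrpl52 was the 1 member more than doubled, at 14.7 FPKM with ND RNA and 59.4 FPKM with HFD RNA, a difference of 1.95. Mrpl54 (44.0 and 85.9 FPKM, difference 0.95) and Mrpl20 (45.1 and 78.1 FPKM, difference 0.78) followed, then Mrpl53 (70.0 and 95.6 FPKM, difference 0.44). Mrpl52, Mrpl53 and Mrpl54 belong to the large-subunit proteins that only mitochondria have. In blastocysts their differences were -0.17, -0.18, -0.35 and -0.10 in the same order, and -0.05, -0.05, -0.23 and 0.03 after scaling, where Mrpl53 turned. On the low side, Mrpl37 held 48.4 FPKM with ND and 21.8 FPKM with HFD RNA (difference -1.11), and Mrpl55, counterpart of bacterial L31, held 265 and 128 FPKM (difference -1.05). Once scaled these were -0.91 and -0.83, so that no member was then lower by 1. Mrps10 (84.1 and 43.5 FPKM) and Mrpl3 (74.8 and 39.9 FPKM), both with bacterial counterparts, were lower by -0.94 and -0.89.

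In blastocysts 52 of 76 members were lower under HFD and 24 higher, with a median of -0.18 for members and for all 4134 genes alike; 35% of all genes were higher. After median ratio scaling both medians were -0.06, with 31 members higher against 44.9% of all genes. None was higher by 1 or more (1.28% of all genes) and 3 were lower by that much (4.91% of all genes); after scaling these were 0 (1.91%) and 2 (3.02%). All 3 are large-subunit proteins that only mitochondria have. Mrpl37 held 134 FPKM with ND and 51.8 FPKM with HFD RNA (difference -1.36). Mrpl39, related to threonyl-tRNA synthetase, held 86.0 and 36.4 FPKM (difference -1.22). Mrpl45, which holds the ribosome at the inner membrane, held 63.6 and 30.9 FPKM (difference -1.02, or -0.89 with median ratio scaling). Mrps27, a small-subunit protein with pentatricopeptide repeats, held 30.8 and 14.9 FPKM (difference -0.999). Of the 20 large-subunit proteins that only mitochondria have, 17 were lower and 3 higher (Mrpl40, Mrpl41 and Mrpl42), while the 30 large-subunit proteins with a bacterial counterpart split into 19 lower and 11 higher. The classes had medians of -0.27 and -0.18, and their difference was not tested. Once scaled, the class of 20 had 13 lower and 7 higher, and the class of 30 had 17 lower and 13 higher.

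The blastocyst difference between HFD and ND was related to the level of the gene. The 38 members with lower means (12.1 to 101.5 FPKM) had 31 lower and 7 higher under HFD, with a median of -0.35; of all genes up to that level 2080 were lower and 1030 higher, with a median of -0.21. The 38 with higher means (112 to 1263 FPKM) had 21 lower and 17 higher, with a median of -0.10; of all genes from that level up 568 were lower and 403 higher, with a median of -0.085. Members and all genes thus ran the same way between the level ranges, and the difference between them was not tested. Spearman's rho between difference and level was 0.50 over 76 members and 0.02 over all 4134 genes; level and difference share the same libraries. Against the level in the 8-cell libraries, which do not enter the difference, rho was 0.38. At the 8-cell stage the relation had the other sign, with rho of -0.20 over 74 members. Among the highest members, Mrpl42 held 771 FPKM with ND and 1258 FPKM with HFD RNA (difference 0.71), and Mrpl23, at the exit of the peptide tunnel, 584 and 834 FPKM (difference 0.51). By size of difference, Mrps6 (51.4 and 67.2 FPKM, difference 0.38) and Mrpl34 (401 and 513 FPKM, difference 0.36) were the next. Of these, Mrps6 belongs to the members with lower means and so went against the relation with level. The spread of members was wider in the HFD library, where the 90th percentile was 24.7 times the 10th, against 15.3 times in the ND library; at the 8-cell stage the order was the other way, with 12.8 times (HFD) and 19.96 times (ND).

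**Figure D3:**
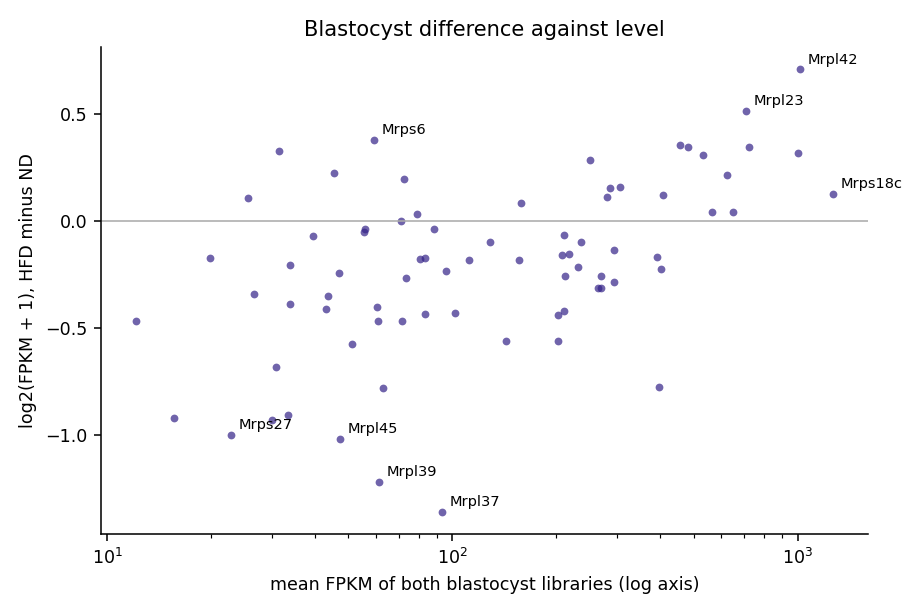
Difference between HFD and ND blastocysts in log2(FPKM + 1) against mean FPKM of both libraries (log axis), 1 point for each of 76 members. Mrpl37, Mrpl39 and Mrpl45 lie lowest, at -1.36 to -1.02, and Mrpl42 highest at 0.71.

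Over both stages together 42 of 74 members were lower under HFD at both and 7 higher at both. Another 16 were lower and then higher, and 9 higher and then lower. The same counts over all genes are not given here. Most genes were lower at either stage, with 22.7% of all genes higher at the 8-cell stage and 35% in blastocysts. A limma fit of the injected RNA across the 4 libraries called 0 members and 0 of 9603 genes (0%) in either direction. At unadjusted p under 0.05 it gave 11 members lower (9.93% of all genes) and 0 higher (2.2% of all genes). Of the 77, 17 were higher, against 36.6% of all genes. Mrpl37 had the lowest p of the members (difference -1.24, SE 0.22, limma adjusted p = 0.387), and was the 1 member lower by more than 1 at both stages. On scaled values 4 members were lower (4.97% of all genes) and 1, Mrps36, was higher (4.49%) at that p, and 26 members were higher in all, against 50.4% of genes; 0 genes were called.

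**Figure D4:**
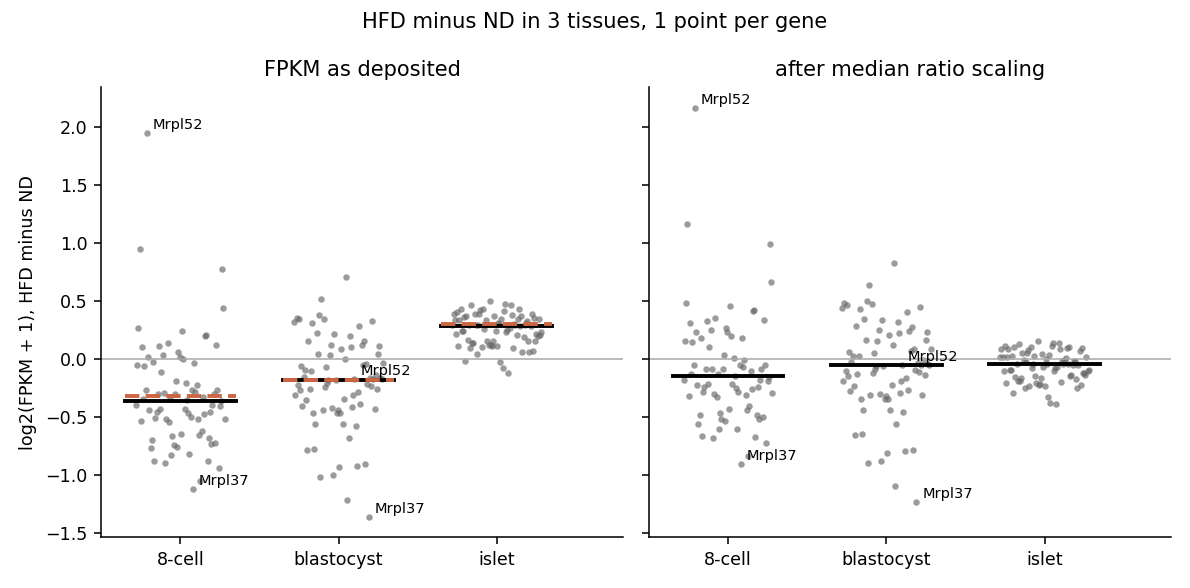
HFD minus ND in log2(FPKM + 1) for each member (points) in 8-cell embryos, blastocysts and islets, with FPKM as deposited on the left and after median ratio scaling on the right. Black bars are member medians, and dashed orange lines, drawn on the left only, are the medians of all genes. As deposited, the medians are -0.36, -0.18 and 0.29, next to all-gene medians of -0.32, -0.18 and 0.30.

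In islets of the offspring no member differed between the groups by the test, and the median of the members lay close to that of all genes. Of 77, 73 were higher in the HFD group as deposited, where 93.8% of 11737 genes were higher, and the median difference was 0.29 against 0.30 for all genes. The direction turned with median ratio scaling, with 28 higher and 49 lower, a median of -0.05 and 51.6% of all genes higher. By limma 0 members passed adjusted p under 0.05, while 5 genes did upward (0.0426%) and 1 downward (0.00852%). At unadjusted p under 0.05 there were 16 members higher (29.6% of all genes) and 0 lower (0.843% of all genes). The HFD libraries lay above all ND libraries for 29 members (41.5% of all genes) and below them for 0 (0.784%); after scaling this held for 1 member above (7.95%) and 6 below (8.98%). Scaled values gave 0 members called, as against 0.017% of genes upward and 0% downward; at unadjusted p under 0.05 they gave 0 members higher (5.15%) and 4 lower (4.75%).

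The members with the lowest p among those without overlap were Mrpl4, Mrpl27, Mrps21, Mrpl34, Mrpl21 and Mrpl10, with differences of 0.39 to 0.50 and adjusted p from 0.120 to 0.140. Mrpl4 held 11.1, 12.7 and 12.5 FPKM in the ND libraries and 17.9, 16.7 and 16.7 FPKM in the HFD libraries, or 12.1 ± 0.879 and 17.1 ± 0.691 (SD, n = 3 each), a difference of 0.47 (SE 0.15, limma adjusted p = 0.120). Mrpl27, near the peptidyl transferase centre, held 13.2, 16.2 and 15.0 FPKM against 22.1, 19.6 and 21.2 FPKM, a difference of 0.48 (SE 0.16, adjusted p = 0.123). It was the 1 member whose HFD libraries still lay above all ND libraries after scaling, with a difference of 0.14. Mrpl10, which anchors the stalk of Mrpl12, held 13.8, 14.7 and 15.5 FPKM against 21.3, 19.2 and 18.3 FPKM, a difference of 0.39 (SE 0.16, adjusted p = 0.140). Mrpl12 itself held 14.9, 14.9 and 14.8 FPKM against 21.7, 17.0 and 16.8 FPKM (difference 0.29, SE 0.16, adjusted p = 0.209). The HFD libraries of these genes were all above the ND libraries, by a margin that did not pass the test. Mrpl34 held 11.7 ± 0.898 and 16.1 ± 1.25 FPKM, and Mrpl21 5.00 ± 0.791 and 6.99 ± 0.635 FPKM (SD, n = 3 each).

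Only 4 members were lower in the HFD islets, namely Mrps22, Mrpl47, Mrps2 and Mrpl15, at -0.12 to -0.02, and they were singled out after their values were seen. Their groups overlapped. After scaling, Mrps22, Mrps2 and Mrpl15 were lower in all HFD than in all ND libraries, at -0.39, -0.33 and -0.29, with adjusted p from 0.398 to 0.492. Mrpl37, with the largest decrease under HFD in embryos, held 8.94, 8.53 and 10.0 FPKM in the ND islets. In the HFD islets it held 13.3, 11.6 and 10.7 FPKM (difference 0.34, SE 0.16, limma adjusted p = 0.165), or a difference of 0.02 after scaling.

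Some other measures moved with the islet groups, and others overlapped between them. Besides the acinar markers, of which 1 of 19 (Amy2a5) was listed at 0 in all 6 libraries, insulin held 37.7% to 48.0% of FPKM in the ND and 48.7% to 64.4% in the HFD libraries. The 6 endothelial markers summed to 91.9 to 139 FPKM (ND) and 178 to 236.5 FPKM (HFD), and the 6 duct markers to 129 to 172 and 223 to 284 FPKM. Of the duct markers only Krt7 and Spp1 were higher in every HFD library. Sums overlapped for markers of alpha, delta and PP cells, at 3512 to 7398 FPKM (ND) and 2456 to 5538 FPKM (HFD). They also overlapped for immune markers (37.9 to 94.5 and 63.4 to 136 FPKM) and stromal markers (34.2 to 65.45 and 64.3 to 104.3 FPKM). The library with the lowest member median, ND replicate 1 at 8.48 FPKM, had the highest acinar sum. The one with the highest median, HFD replicate 1 at 13.0 FPKM, had the lowest acinar sum. The other libraries did not keep this order within groups. ND replicate 3 had a higher acinar sum than ND replicate 2 (219800 and 202700 FPKM) and a higher median (10.3 and 9.80 FPKM). HFD replicate 3 had a lower acinar sum than HFD replicate 2 (120800 and 193300 FPKM) and a slightly lower median (10.9 and 11.01 FPKM). With the acinar sum as a covariate the member median was 0.11 with 53 members higher, none called. The median of all genes with that covariate is not given here. The acinar sums did not overlap between the groups, so covariate and group cannot be fully told apart. The part of insulin, endothelial and duct transcripts in the differences was not tested.

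**Figure D5:**
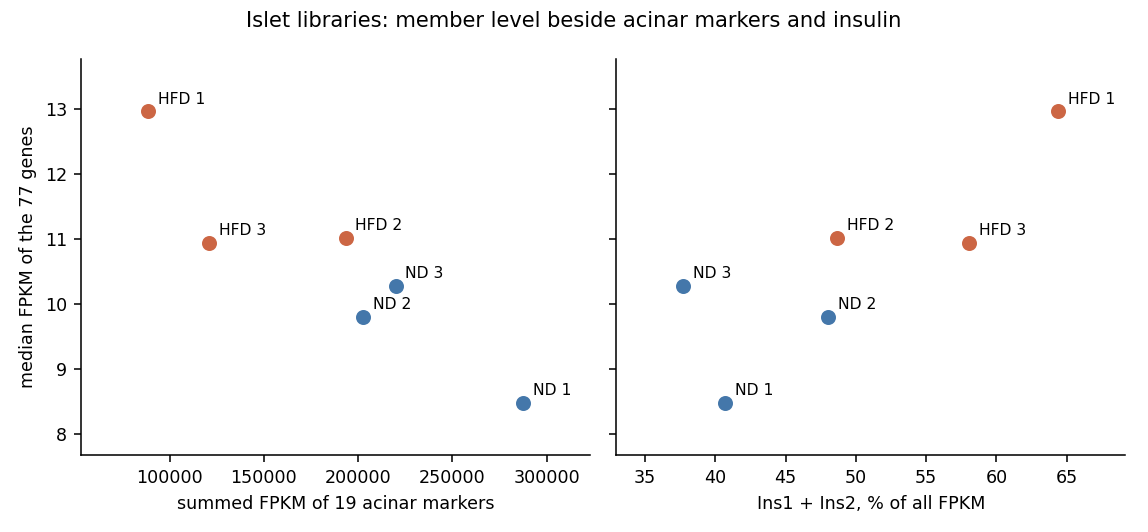
Median FPKM of the 77 genes in each islet library against the summed FPKM of 19 acinar markers (left) and the share of insulin transcripts in all FPKM (right), ND in blue and HFD in orange. The 3 ND libraries lie at 8.48 to 10.3 FPKM and at 202700 FPKM or more of acinar markers, and the 3 HFD libraries at 10.9 to 13.0 FPKM and below them.

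The 3 paralogs of bacterial S18 had different values for the stage change, whose difference was not tested. Mrps18c, the direct counterpart, rose between stages by 1.16 (SE 0.30, adjusted p = 0.0207). Mrps18a, which sits in the large subunit, held 319.5 and 191.5 FPKM at the 8-cell stage and 499 and 292 FPKM in blastocysts (difference 0.62, SE 0.22, adjusted p = 0.0538). Mrps18b held 181 and 176.5 FPKM, then 241 and 163 FPKM (difference 0.15, SE 0.23, adjusted p = 0.619). With HFD RNA, Mrps18a was lower at both stages (-0.74 and -0.77), Mrps18b at -0.03 and -0.56, and Mrps18c at -0.75 and 0.13. In islets the 3 were close, at 16.3 ± 3.69, 12.5 ± 1.22 and 16.7 ± 2.79 FPKM (ND, SD, n = 3) for Mrps18a, Mrps18b and Mrps18c, and 17.3 ± 0.442, 14.5 ± 1.55 and 19.9 ± 3.78 FPKM (HFD, SD, n = 3). No islet difference of the 3 passed the test (limma adjusted p from 0.342 to 0.644). Mrps30, another protein with a small-subunit name that sits in the large subunit, held 30.2 and 36.0 FPKM at the 8-cell stage and 39.6 and 20.3 FPKM in blastocysts.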

How the data were processed

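Islet and embryo RNA-seq values were deposited by the authors as FPKM per gene, the unit per the file headers. TopHat2 2.0.8b, Cufflinks and build mm10 are named per the submitters' processing notes. FPKM carries no counts, so depth is unknown. Entries with a failed status in an embryo table (10 genes) were dropped. Starts are the listed start plus 1. Members, gene lists and the naming rule were chosen with earlier results of these data known.

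Groups came from sample titles. Embryo tables were joined by symbol. Values were analysed as log2(FPKM + 1). Islets were tested with limma 3.58.1 (R 4.3.3, trend, two-sided, 3 libraries per group, 4 residual degrees of freedom) where 3 of 6 libraries reached 1 FPKM. Embryos were tested with an additive limma model of stage and injected RNA where 2 of 4 libraries reached 1 FPKM. P-values were Benjamini-Hochberg adjusted over all genes tested. The fit was tested on simulated data. Within a stage, HFD minus ND was computed where the libraries' mean reached 10 FPKM, and a difference of 1 or more was counted. Median ratio scaling was an alternative, as were pseudocounts of 0.1 and 0.5, other filters, left-out libraries, no trend, a replicate block and an acinar covariate.

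Named members were, in islets, those called and up to 6 per direction by lowest p without overlap; at each embryo stage, 4 per direction by size of difference, and the 5 largest called stage changes per direction; the 4 highest and 4 lowest levels per tissue; and Mrps18a, Mrps18b, Mrps18c, Mrps30, Mrps36 and Mrpl12. Other lists name up to 3 genes by call and then level. Further genes (Mrps11, Mrpl46, Mrps12 and the 4 small-subunit proteins beside it, Mrpl40, Mrpl41, Tfam and the 4 members lower in islets) were named after their values were seen. Sperm and bisulfite libraries were not used here. The planned protein comparison of the Mrps18 paralogs was not made.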

Additional observations from a re-analysis of the deposited data

Results flagged for a closer look

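Mrpl52 had values of opposite sign at the stages, at 1.948 (HFD minus ND on the log2 scale) in 8-cell embryos and -0.171 in blastocysts. The blastocyst value lay close to the median of all genes there (-0.181). After median ratio scaling the values were 2.165 and -0.052. With 1 library per group at each stage, the difference between the stages was not tested.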

How the results depend on the processing

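The islet result of 0 members called held under all alternatives run. The members' median of 0.29 turned to -0.046 (28 higher) with median ratio scaling. It became 0.11 with the acinar covariate, whose values did not overlap between the groups. Leaving out 1 library gave 0.20 to 0.30 with 68 to 76 members higher. Over all genes, those called higher ranged from 0 to 355 and those called lower from 0 to 18 when 1 library was left out (355 and 18 without ND replicate 3). Replicate numbers did not pair the islet libraries: correlations of same-numbered libraries were -0.0301, 0.0377 and 0.0347, and not every library correlated best with its own number. With the replicate block 0 members and 537 genes upward and 53 downward were called.

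For the stage difference, median ratio scaling gave 21 risen, 5 fallen and a median of 0.28. The 2 fallen members became 1 without a filter, without trend or with a pseudocount of 0.1, and 0 with stage alone. Leaving out 1 library gave fewer members risen each time and medians of 0.41 to 0.85. The lone library of a stage was then assumed to vary like the others, and members were not compared with all genes. A filter of 10 FPKM gave 1637 and 842 genes called. For the injected RNA, scaling gave a median of -0.10 with 26 members higher.

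At the 8-cell stage, scaling gave 2 members higher by 1 or more, 0 lower and a median of -0.15. As deposited, a limit of 0.58 gave 3 members higher and 19 lower at that stage, and 1 higher and 10 lower in blastocysts. The shares of all genes past that limit are not given here. The median of all genes was itself -0.32 at the 8-cell stage and -0.18 in blastocysts. The scaled blastocyst median was -0.055. Causes were not tested. Without counts, depth limits cannot be given, and embryos have 1 library per group.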
